A study of Mus musculus with 3 samples.

Results

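The genes described here are 10 cytokine and receptor genes of interleukin-1 (IL-1), interleukin-6 (IL-6) and tumor necrosis factor (TNF) signaling, taken by symbol from the 32285 genes counted in each library. They are the ligands Il1a, Il1b, Tnf, Il33, Il6 and Lif and the receptor genes Il1r1, Osmr, Il6ra and Il6st, and each symbol matched 1 gene in all 3 libraries. Single cells were profiled from the ascending aorta of male C57BL/6J mice aged 45 days. The groups were wild-type mice (WT, 3 mice pooled), mice homozygous for mgR, a hypomorphic Fbn1 allele that lowers fibrillin-1 and models severe Marfan syndrome (mgR, 3 mice pooled), and mgR mice that drank losartan, an angiotensin II type 1 receptor blocker, at 0.6 g/L from day 16 (mgR-LOS, 4 mice pooled). The study also had mgR mice given vehicle in their drinking water, and WT mice given vehicle. The labels of the mgR and WT libraries do not say whether they came from such mice. Each condition was 1 pooled library, so no test between conditions was possible, and a condition and its library cannot be told apart. The 95% exact intervals in parentheses cover counting error only. Those of levels and ratios treat UMIs as independent and leave out the spread between barcodes and between mice. They are therefore too narrow where a few barcodes hold many UMIs of a gene. The comparisons mgR over WT and mgR-LOS over mgR share the mgR library.

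IL-1 alpha and IL-1 beta act through the receptor encoded by Il1r1, and TNF through its own receptors, to activate NF-kB, and Il6 is a classical gene switched on by both. IL-6 and oncostatin M bind receptor chains encoded by Il6ra and Osmr, LIF binds that of Lifr, and all signal through the common chain gp130, encoded by Il6st, to JAK kinases and STAT3. IL-33 is an IL-1 family cytokine held in nuclei of fibroblasts and lining cells and released on damage. In vessel walls myeloid cells are known for making IL-1 and TNF, and mesenchymal cells for making IL-6.

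Promoters are shown for the ligands Il1b and Tnf, which lay mostly in myeloid classes, and Il6 and Lif, which lay mostly in fibroblasts, so that their letters can be set beside the levels. Each is the 250 bases before the RefSeq start (GRCm38.p6), 5′ to 3′ on the gene's strand, and capitals mark matches on either strand to GGGA and TTCC with any 2 bases between them (kappa-B type), TGANTCA (AP-1 type) or TTGCNNCAA (C/EBP type).
Il1b, chr2:129371140-129371389, minus strand: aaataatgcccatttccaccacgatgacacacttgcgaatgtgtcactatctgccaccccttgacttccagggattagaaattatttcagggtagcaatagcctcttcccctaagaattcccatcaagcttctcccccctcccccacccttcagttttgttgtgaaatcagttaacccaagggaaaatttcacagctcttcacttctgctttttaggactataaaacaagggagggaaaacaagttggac
Tnf, chr17:35202008-35202257, minus strand: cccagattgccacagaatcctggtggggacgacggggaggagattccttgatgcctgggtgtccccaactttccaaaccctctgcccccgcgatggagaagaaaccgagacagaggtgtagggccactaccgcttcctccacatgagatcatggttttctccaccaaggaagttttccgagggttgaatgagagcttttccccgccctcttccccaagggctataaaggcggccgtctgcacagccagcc
Il6, chr5:30012864-30013113, plus strand: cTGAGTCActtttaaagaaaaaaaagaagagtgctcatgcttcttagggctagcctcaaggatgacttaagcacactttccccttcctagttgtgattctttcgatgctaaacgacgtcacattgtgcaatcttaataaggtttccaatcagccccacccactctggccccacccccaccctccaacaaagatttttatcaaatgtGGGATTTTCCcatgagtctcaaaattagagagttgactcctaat
Lif, chr11:4257318-4257567, plus strand: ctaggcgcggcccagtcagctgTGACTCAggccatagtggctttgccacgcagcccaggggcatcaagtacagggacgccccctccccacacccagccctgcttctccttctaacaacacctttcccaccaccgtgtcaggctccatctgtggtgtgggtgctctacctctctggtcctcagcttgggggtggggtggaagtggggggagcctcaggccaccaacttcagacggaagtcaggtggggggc
The Il6 window held GGGATTTTCC from 44 to 35 bases before the start and TGAGTCA from 249 to 243 bases before it, and the Lif window held TGACTCA from 228 to 222 bases before the start. None of the motifs was found in the windows of Il1b and Tnf, which says nothing of the factors. Among the other 6 members only the Il1a window held a match, TGACTCA from 12 to 6 bases before the start. Of 32851 windows of the same length, 1.21% held the kappa-B type motif, 6.75% the AP-1 type and 1.74% the C/EBP type.

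In the GENCODE annotation of GRCm38 the genes lie at chr2:129299610-129309972 (Il1a), chr2:129364570-129371139 (Il1b), chr17:35199381-35202007 (Tnf), chr19:29925114-29960718 (Il33), chr5:30013114-30019981 (Il6), chr11:4257557-4272514 (Lif), chr1:40225080-40317257 (Il1r1), chr15:6813577-6874969 (Osmr), chr3:89864059-89913196 (Il6ra) and chr13:112464070-112510086 (Il6st). Il1b and Il6ra overlap the antisense genes Il1bos and Gm42809, Il1a overlaps the noncoding gene Gm14023 on the other strand and Il1r1 overlaps Gm38070 on the same strand, so reads of Il1r1 and Gm38070 may be shared.

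After filtering, 5361, 8076 and 12721 barcodes remained in WT, mgR and mgR-LOS, at median depths of 13636, 12410 and 8334 UMIs (unique molecular identifiers, 1 per captured RNA molecule). Any pair of libraries shared 11 to 34 barcode sequences. Fbn1, the targeted gene, was checked first, with levels given as UMIs of a gene per 1000000 UMIs (CPM). Its level was 361 in WT, 150.1 in mgR and 117 in mgR-LOS. Barcodes were named by marker genes as smooth muscle cells (SMCs; 3634, 3062 and 7852), fibroblasts (1316, 2400 and 3078), endothelial cells (ECs; 101, 199 and 156), macrophages (88, 922 and 545), monocytes or dendritic cells (3, 156 and 30), neutrophils (3, 65 and 12) and smaller classes. Barcodes over the cut of more than 1 lineage were held apart as mixed (126, 624 and 730), and 43, 313 and 198 passed no gate. No doublet caller was run. Between 20% below and 25% above the cut lay 31, 221 and 142 barcodes for SMCs, 89, 293 and 241 for fibroblasts, 2, 72 and 28 for macrophages and 17, 200 and 89 for monocytes or dendritic cells, more than that class holds.

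Over whole libraries all 10 genes were higher in mgR than in WT and lower in mgR-LOS than in mgR. The share of all genes with this order was not computed, so the count cannot be set against it. The make-up of the libraries differed too, with 73.6%, 47.3% and 63.35% of UMIs in SMCs in WT, mgR and mgR-LOS. Il1b stood at 38.8 (37.3–40.2) CPM in WT, 405 (401–409) in mgR and 138 (136–140.5) in mgR-LOS, ratios of 10.5 (10.1–10.9) for mgR over WT and 0.341 (0.335–0.348) for mgR-LOS over mgR. Lif, a cytokine of the IL-6 family, stood at 0.7145 (0.530–0.942) CPM in WT, 9.10 (8.52–9.71) in mgR and 4.23 (3.855–4.63) in mgR-LOS, on 50, 909 and 470 UMIs. At the other end Il6st had ratios of 1.24 (1.205–1.28) and 0.912 (0.8905–0.9345). For mgR over WT the ratios of Tnf, Il6, Il1a, Il6ra and Osmr were 6.62, 4.82, 4.65, 4.37 and 2.13, and those of Il33 and Il1r1 were 1.68 and 1.46. These ratios depended on the barcodes kept and on their weighting. At a mitochondrial limit of 5%, which kept 1999, 5231 and 7459 barcodes, the mgR over WT ratios were 5.34 for Il1b, 6.81 for Lif, 3.42 for Tnf, 2.59 for Il6, 2.39 for Il1a, 2.50 for Il6ra, 1.34 for Osmr and 0.956 for Il33, the last below 1. With each barcode weighted equally, the Il1b ratio was 14.1. For mgR-LOS over mgR the ratios of Il1a, Tnf and Lif were 0.348, 0.364 and 0.465, and that of Il6 was 0.5105 (0.495–0.526). Weighted equally, Il1b and Il1a came to 0.227 and 0.221.

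A library level combines the level inside each class with the share of the library's UMIs that the class makes up, and the 2 were separated by exchanging one at a time. With WT levels and mgR class shares, Il1b came out 6.57 times its WT library level, Tnf 6.51 times and Il1a 6.49 times. With WT shares and mgR levels the same genes came out at 1.67, 1.135 and 0.763 times. For Il6 and Lif the order was the other way round, 1.72 and 1.63 times for shares and 3.18 and 7.71 times for levels. A shift between subtypes of cells inside a class counts as level in this exchange, and its part was not tested. Among the receptor genes Osmr had 1.28 for shares and 1.93 for levels, and Il6ra had 3.44 and 1.70. In mgR-LOS over mgR, shares gave 0.416 for Il1b and 0.7835 for Il6, and levels gave 0.779 and 0.649. Macrophages held 1.20%, 8.03% and 3.40% of UMIs in WT, mgR and mgR-LOS, and were 1.64%, 11.4% and 4.28% of barcodes. The WT levels of monocytes or dendritic cells and of neutrophils used here rest on 3 barcodes each.

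**Figure D1:**
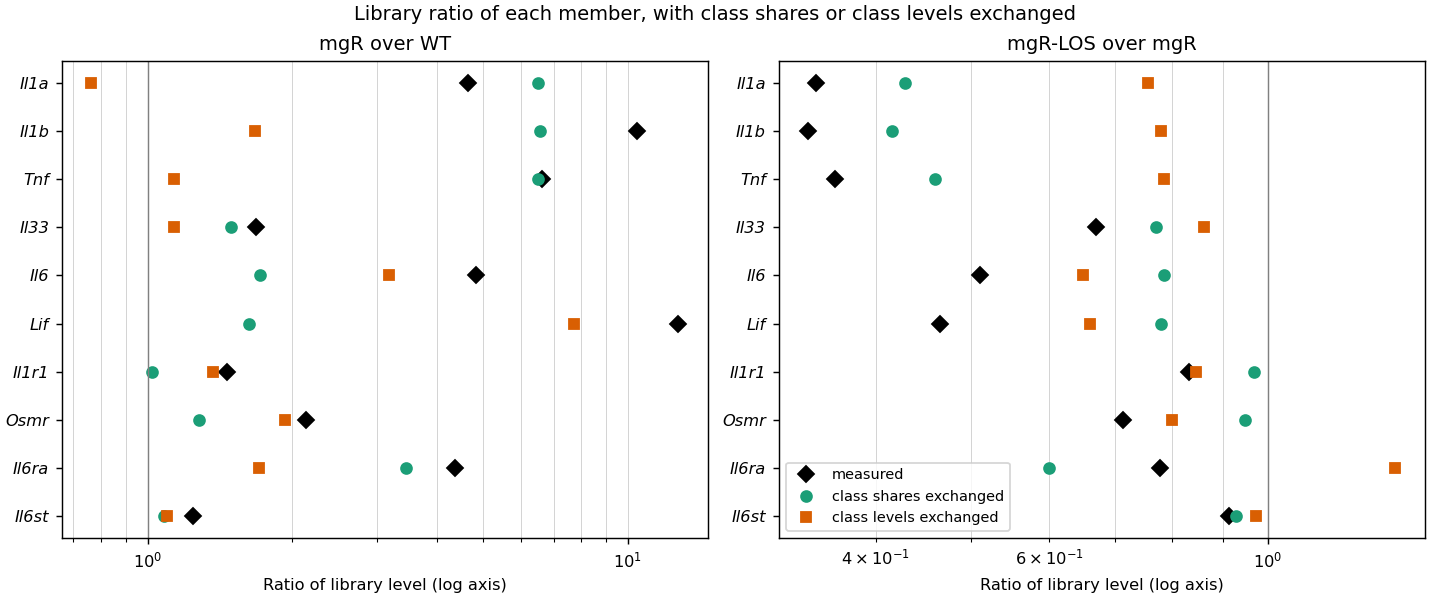
Ratio of each member's library level (log axis) for mgR over WT and mgR-LOS over mgR, as measured, with only the class shares exchanged and with only the class levels exchanged. In mgR over WT the share-only values of Il1a, Il1b and Tnf lie between 6.49 and 6.57, and the level-only values of Il6 and Lif (3.18 and 7.71) exceed their share-only values.

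The IL-1 ligands and Tnf lay mostly in macrophages in all 3 libraries. Of the Il1b UMIs, 88.35%, 50.1% and 59.9% were in macrophages in WT, mgR and mgR-LOS. In mgR another 16.95% were in monocytes or dendritic cells, 8.05% in neutrophils and 15.5% in barcodes that passed no gate. Tnf had 95.8%, 76.2% and 81.8% of its UMIs in macrophages and Il1a 94.6%, 73.55% and 81.5%. By class, Il1b in mgR was highest in neutrophils at 20364 (19671–21076) CPM, then in monocytes or dendritic cells at 5386 (5260–5515) and macrophages at 2527 (2493–2562), and these intervals did not overlap. The 65 mgR neutrophils had a median depth of 2118 UMIs, and Tnf stood at 2138 (1918–2377) and Il1a at 1338 (1165–1530) CPM in them.

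**Figure D2:**
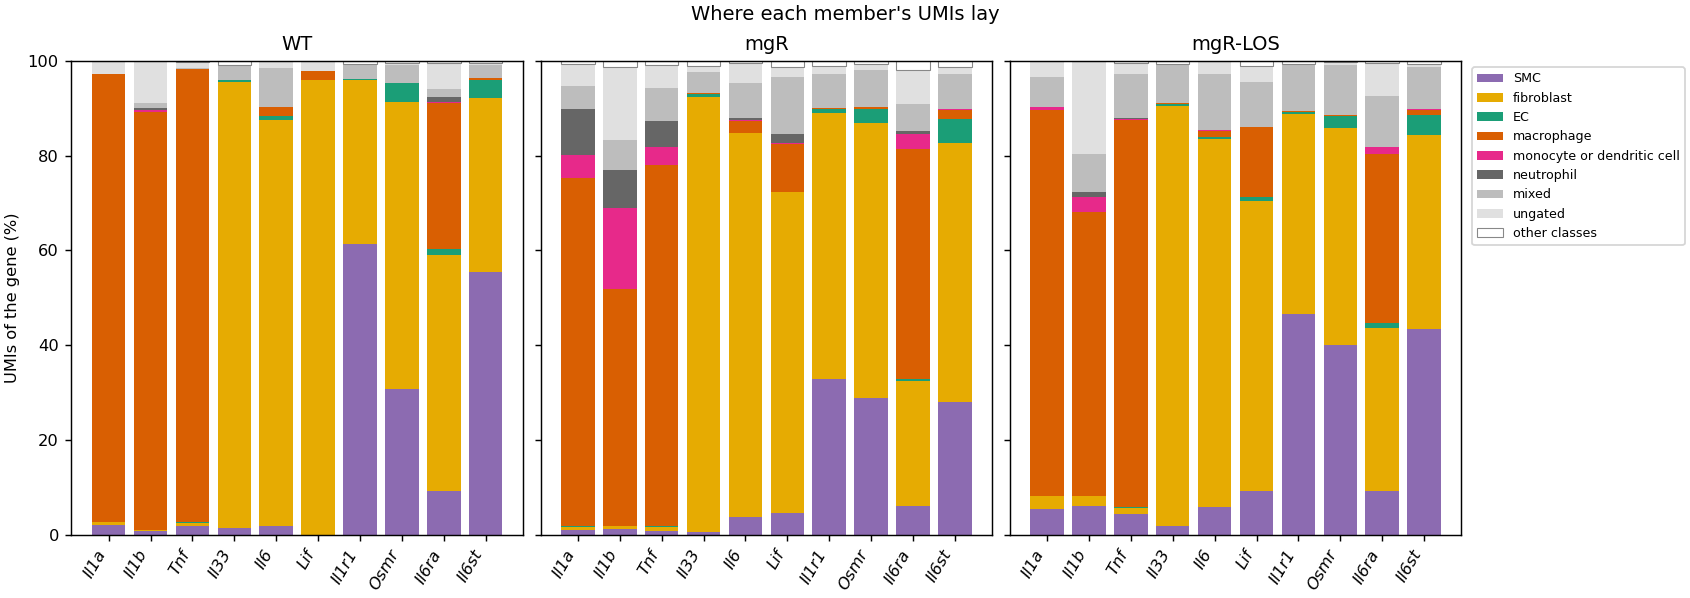
Share of each member's UMIs (percent) held by each class in WT, mgR and mgR-LOS, as stacked bars. Macrophages hold most of Il1a and Tnf in each library and 88.35%, 50.1% and 59.9% of Il1b, and fibroblasts hold most of Il33, Il6 and Lif.

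Within macrophages these 3 ligands were not higher in mgR than in WT. Il1b stood at 2847 (2734–2964) CPM in WT, 2527 (2493–2562) in mgR and 2438 (2388–2488) in mgR-LOS, a ratio of 0.888 (0.851–0.926) for mgR over WT and 0.964 (0.941–0.9885) for mgR-LOS over mgR. Naming barcodes by clusters turned the first of these ratios to 1.08, so its direction depends on which barcodes are counted as macrophages. Tnf stood at 751 (694–812) CPM in WT, 592 (575–609) in mgR and 546 (523–570.4) in mgR-LOS, and its ratio of mgR over WT was 0.788 (0.7255–0.858). Il1a stood at 374 (334–418) CPM in WT, 202 (193–212.5) in mgR and 185 (171–199) in mgR-LOS, with WT above both other libraries and a ratio of 0.541 (0.479–0.612). The WT values rest on 88 barcodes, of which the top 10% held 48.6% of the Il1b UMIs. Other classes differed from macrophages. For mgR-LOS over mgR, Il1b was 0.414 (0.377–0.454) in monocytes or dendritic cells and 0.380 (0.3215–0.446) in neutrophils, and Tnf was 0.146 and 0.115. These mgR-LOS values rest on 30 and 12 barcodes, and WT had 3 of each class. In barcodes that passed no gate Il1b was 3.30 (2.90–3.78) for mgR over WT and 0.946 for mgR-LOS over mgR.

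Thinned to 2000 UMIs per barcode, 53.5% (42.4–64.3), 58.05% (54.75–61.3) and 56.3% (51.95–60.6) of macrophages held an Il1b UMI, and these intervals overlapped. In SMCs, at median depths of 14382, 15249 and 8530 UMIs against 9074, 8305 and 6309 in macrophages, the thinned shares were 0.0563%, 1.12% and 1.02%. Unthinned, the macrophage shares were 57.95%, 66.6% and 62.4%. Of the mgR macrophages with Il1b, 78.7% also had a Tnf UMI, where 72.9% of all mgR macrophages had one. Both shares were unthinned, and the part of barcode depth in them was not tested.

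Low values of Il1b in other classes differed between the libraries. In SMCs Il1b stood at 0.388 (0.237–0.5995) CPM in WT, 9.84 (8.97–10.8) in mgR and 13.1 (12.3–14) in mgR-LOS, and in fibroblasts at 0.339 (0.110–0.792) CPM in WT, 8.83 (7.80–9.96) in mgR and 13.1 (11.8–14.6) in mgR-LOS. The summed macrophage markers moved beside them, at 6.385, 21.5 and 26.7 CPM in SMCs and 10.45, 24.2 and 31.2 CPM in fibroblasts, against 17732, 16831 and 16567 CPM in macrophages, and their part in these values was not tested. Single SMC barcodes held up to 85 Il1b UMIs in mgR and 152 in mgR-LOS. Tnf was at 0.233, 1.02 and 1.53 CPM in SMCs and 0.272, 1.79 and 1.41 in fibroblasts, and Il1a was at 0.136, 0.423 and 0.653 in SMCs and 0.136, 0.529 and 0.941 in fibroblasts. The order of mgR-LOS and mgR for Il1b turned with the naming of barcodes: by clusters the ratio of mgR-LOS over mgR was 0.319 in SMCs and 0.704 in fibroblasts. Of the clusters counted as SMC, that led by Mcpt4 and Cma1, genes known from mast cells, also had Cxcl2 and Lyz2 among its leading genes. It had 328 and 16 barcodes in mgR and mgR-LOS, at a median depth of 3108 UMIs in mgR. There it held 571 Il1b UMIs (398.5 CPM) and 170 Tnf UMIs (119 CPM), and the cell type behind them was not tested. Il1b in the other SMC clusters of at least 50 mgR barcodes stood between 2.95 and 8.98 CPM in mgR and between 2.76 and 6.83 in mgR-LOS. The SMC value of 0.319 includes the Mcpt4 cluster, and the ratio without that cluster was not computed.

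Il33, the nuclear alarmin, had 94.3%, 91.8% and 88.7% of its UMIs in fibroblasts. Its level there was 126.5 (121–132) CPM in WT, 144 (140–149) in mgR and 123 (119–127) in mgR-LOS, so that mgR stood highest by a ratio of 1.14 (1.08–1.20) and the intervals of WT and mgR-LOS overlapped. In SMCs it was 0.505, 0.635 and 0.923 CPM and in macrophages 0, 1.12 and 2.38. The 9, 24 and 13 mesothelial barcodes of WT, mgR and mgR-LOS, cells that line the outer surface, had 202 (120–320), 171 (128–224.5) and 227 (142–344) CPM. There mgR had the lowest value, and the intervals overlapped.

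Il6 differed between libraries inside the class that held most of it. Fibroblasts held 85.7%, 81.1% and 77.8% of its UMIs, at 98.2 (93.2–103) CPM in WT, 312 (305.5–318) in mgR and 201 (196–207) in mgR-LOS. The ratio was 3.17 (3.00–3.36) for mgR over WT and 0.646 (0.624–0.668) for mgR-LOS over mgR, and no pair of the 3 intervals overlapped. Thinned to 2000 UMIs, 7.51% (6.12–9.10), 21.8% (20.1–23.5) and 15.8% (14.5–17.2) of fibroblasts held an Il6 UMI, against 0.141%, 1.09% and 0.6305% of SMCs. Unthinned, the fibroblast shares were 14%, 36% and 25.6% at median depths of 11442, 12328 and 8102 UMIs. The top 10% of fibroblasts held 96.4%, 73% and 81.1% of the Il6 UMIs, and single fibroblasts held up to 71, 277 and 71. The level intervals leave out this spread between barcodes. Outside fibroblasts Il6 was 0.621, 8.99 and 5.495 CPM in SMCs. In macrophages it was 40.4 (28–56.5) CPM in WT, 35.15 (31.2–39.5) in mgR and 24.6 (19.9–30.1) in mgR-LOS, where WT and mgR overlapped. Of the 34 Il6 UMIs of WT macrophages, 29 lay in 1 barcode. In the larger macrophage cluster (89, 1002 and 586 barcodes) Il6 was 6.17, 22.7 and 18.1 CPM. There mgR stood above WT without overlap, so the order of WT and mgR depends on which barcodes are counted as macrophages. In mgR neutrophils 45 of the 47 Il6 UMIs lay in 1 barcode.

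Lif in fibroblasts stood at 3.26 (2.40–4.32) CPM in WT, 20.4 (18.8–22.1) in mgR and 11.3 (10.0–12.7) in mgR-LOS, on 48, 617 and 288 UMIs. The ratios were 6.26 (4.665–8.59) and 0.553 (0.479–0.637). SMCs had 0, 41 and 43 UMIs, so mgR was at least 14.9-fold higher than the level of 3 UMIs that a count of 0 allows in WT, and with the counting error of both libraries the lower bound of the ratio was 11.6. In macrophages Lif was 1.19 (0.0301–6.62) CPM in WT, 11.5 (9.24–14.1) in mgR and 18.5 (14.4–23.4) in mgR-LOS, on 1, 92 and 70 UMIs, and there mgR-LOS had the highest value. Of the mgR fibroblasts with a Lif UMI, 60.7% also had Il6, against 36% of all mgR fibroblasts. In WT, where only 27 fibroblasts had a Lif UMI, the values were 7.41% and 14%. These shares were unthinned, and the part of barcode depth in them was not tested.

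**Figure D3:**
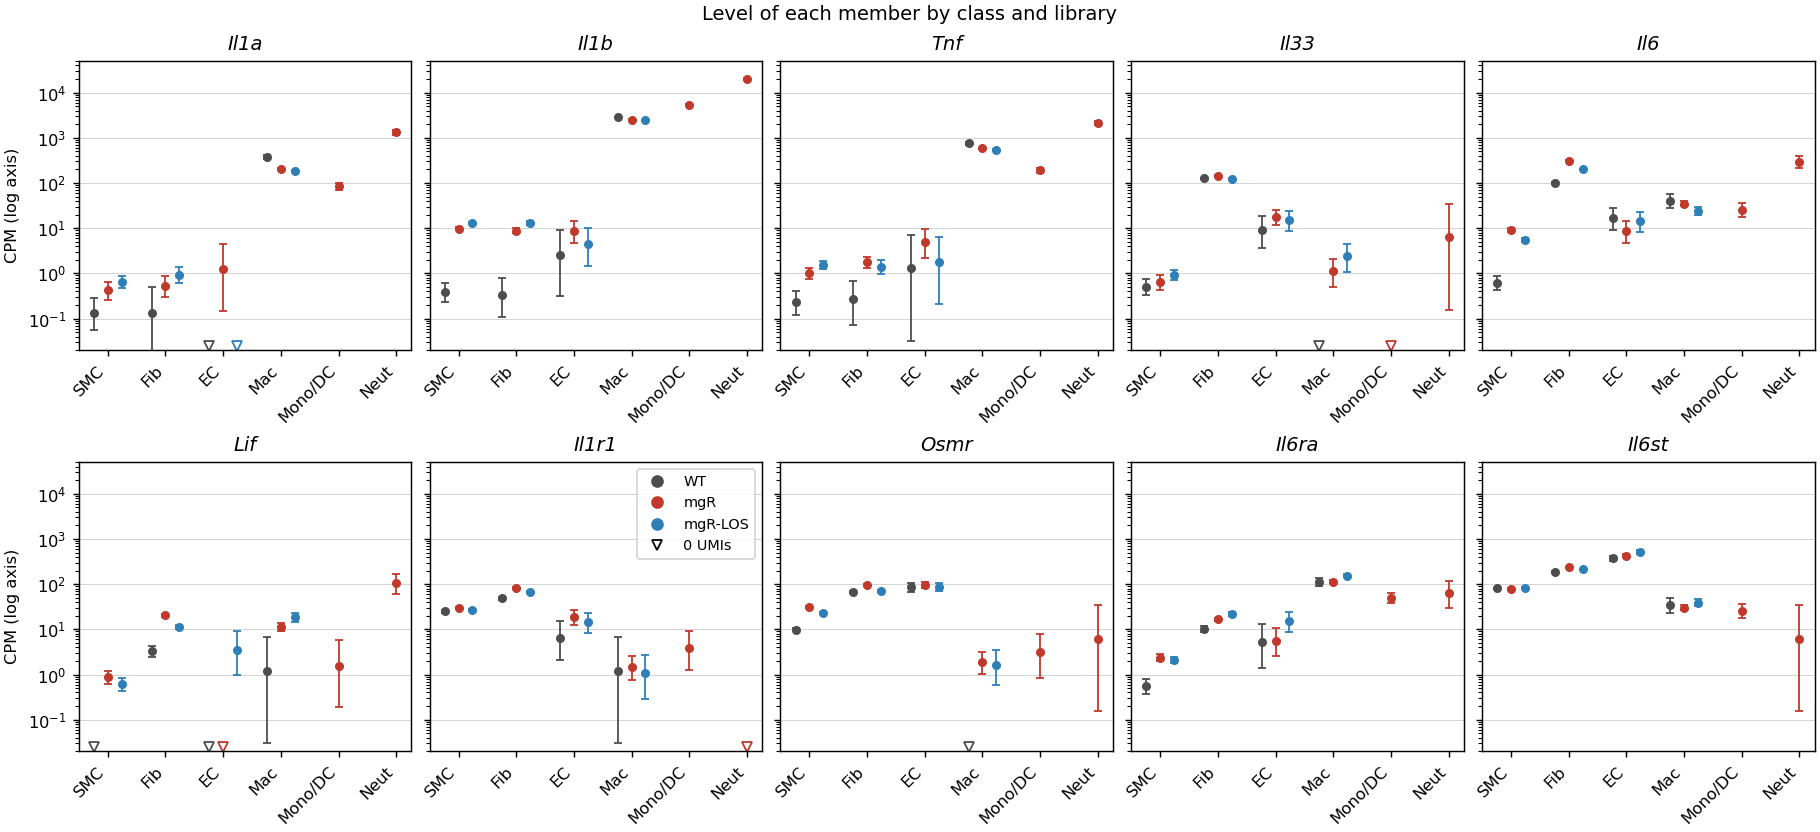
Level of each member (CPM, log axis) by class and library for classes of at least 50 barcodes, with 95% counting intervals and triangles for 0 UMIs. In macrophages the 3 Il1b values lie between 2438 and 2847 CPM, and in fibroblasts the mgR values of Il6 and Lif are the highest of the 3 libraries.

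Fibroblast clusters differed in Il6. Clustering of the joined libraries on genes other than the members gave 4 fibroblast clusters, called here by leading genes. No correction for differences between libraries was made before clustering. In the cluster led by Hsd11b1 and Fhl2 (137, 1168 and 973 barcodes) Il6 was 117 (101–135), 481 (470.3–492) and 381.5 (369–395) CPM in WT, mgR and mgR-LOS. In that led by Wif1 and Chad (460, 455 and 827 barcodes) it was 9.79 (7.51–12.55), 106.5 (98.35–115) and 23.3 (20.05–27). In both, mgR had the highest value. In that led by Ly6c1 and Sbsn (210, 710 and 935 barcodes) it was 211 (193–230), 187 (179–196) and 177 (168–186), where WT and mgR overlapped. In that led by AI507597 and Myh11 (559, 208 and 636 barcodes), which has SMC markers among its leading genes, it was 146 (136–157), 108 (91.6–127) and 84.8 (76–94.4), with WT highest. The make-up of the fibroblasts by cluster thus differed between libraries as well. Its part in the Il6 ratio over all fibroblasts was not tested.

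Lif in the Wif1 cluster was 5.53 (3.85–7.69), 32.7 (28.3–37.7) and 24 (20.65–27.7) CPM, and in the Hsd11b1 cluster 1.24 (0.150–4.48), 29.2 (26.6–32) and 6.27 (4.71–8.18), with mgR highest in both. Il33 had its highest level of each library in the Ly6c1 cluster, at 299 (278–321), 245 (235–255) and 195 (186–204) CPM, and there WT stood above mgR. Il1r1 was higher in mgR than in WT in all 4 clusters, at 26.5, 54.5 and 47.7 CPM in the Myh11 cluster and 60.1, 91.7 and 75.8 in the Hsd11b1 cluster. Osmr had its highest level of each library in the Hsd11b1 cluster, at 122 (106–140.4), 114 (108.5–119) and 92 (85.7–98.65) CPM, where WT and mgR overlapped.

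**Figure D4:**
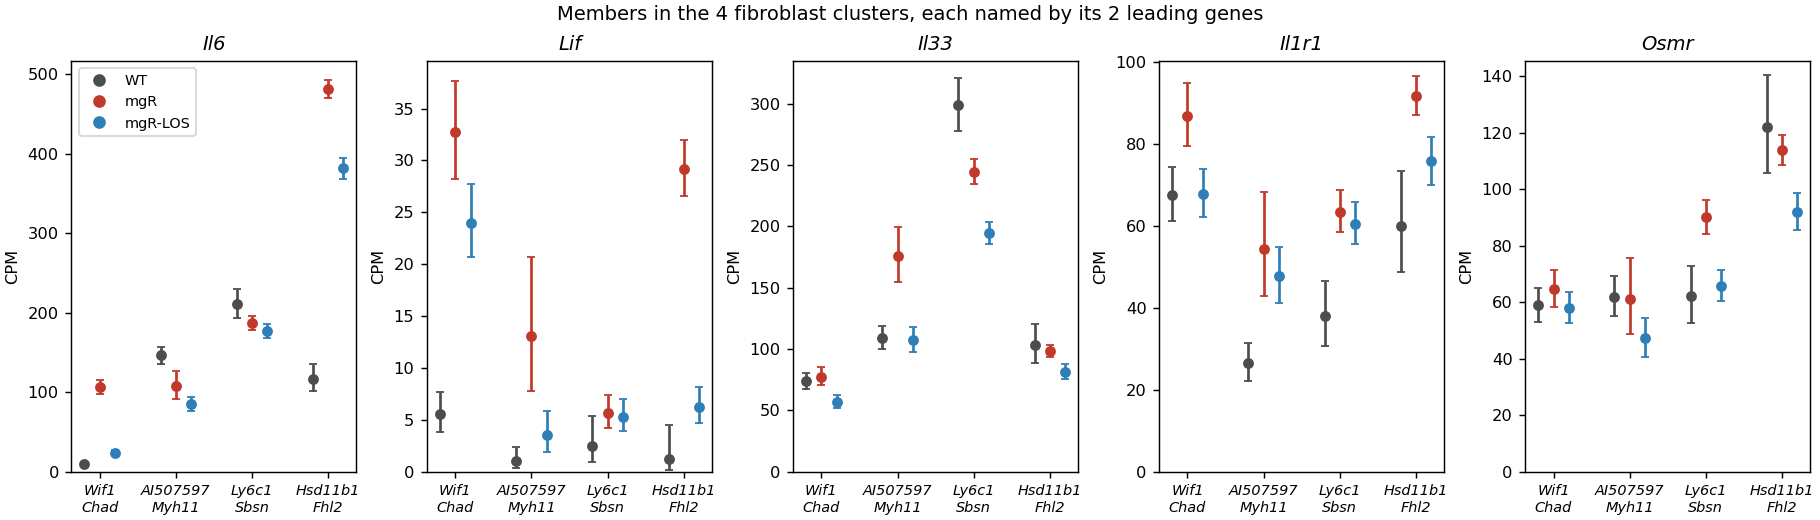
CPM of 5 members in 4 fibroblast clusters for WT, mgR and mgR-LOS, with 95% counting intervals. For Il6 the mgR value is the highest of the 3 libraries in the Hsd11b1 (481) and Wif1 (106.5) clusters and lies below WT in the other 2.

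Il1r1 and Osmr lay in other classes than the IL-1 ligands. Il1r1, the receptor chain for IL-1 alpha and IL-1 beta, had 61.45%, 32.8% and 46.6% of its UMIs in SMCs, 34.5%, 56.3% and 42.3% in fibroblasts and 0.0480%, 0.276% and 0.0993% in macrophages. In fibroblasts it stood at 48.7 (45.2–52.4) CPM in WT, 81 (77.8–84.2) in mgR and 66.7 (63.6–70.0) in mgR-LOS, a ratio of 1.66 (1.53–1.81) for mgR over WT. In SMCs it stood at 24.8 (23.5–26.2) CPM in WT, 30.2 (28.65–31.8) in mgR and 26.65 (25.5–27.9) in mgR-LOS, a ratio of 1.22 (1.13–1.31). T or NK cells had 82.6 (37.8–157) CPM in WT, 46 (31.2–65.3) in mgR and 59.3 (34.55–95) in mgR-LOS, intervals that overlap. Of the mgR fibroblasts with Il6, 61.1% also had Il1r1, against 50.2% of all mgR fibroblasts, both unthinned, and the part of barcode depth was not tested.

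Osmr, the oncostatin M receptor chain, stood in SMCs at 9.88 (9.04–10.8) CPM in WT, 30.7 (29.1–32.3) in mgR and 22.7 (21.6–23.85) in mgR-LOS. The ratio was 3.11 (2.81–3.44) for mgR over WT and 0.740 (0.689–0.795) for mgR-LOS over mgR, and the 3 intervals were separate. Thinned to 2000 UMIs, 1.63% (1.24–2.105), 6.02% (5.20–6.93) and 4.31% (3.87–4.79) of SMCs held an Osmr UMI, against 0%, 0.444% and 0% of macrophages. Unthinned, the SMC shares were 11.6%, 33.25% and 16.2%. In fibroblasts Osmr stood at 67.9 (63.75–72.2) CPM in WT, 96.6 (93.1–100.2) in mgR and 71.8 (68.5–75.15) in mgR-LOS, and in ECs at 85.2 (65.9–108) CPM in WT, 96.2 (81.65–113) in mgR and 88.1 (71.6–107) in mgR-LOS, where the intervals overlapped. The SMCs of the libraries fell largely into different clusters, the largest of WT holding 2471, 18 and 74 barcodes and the largest of mgR 26, 1231 and 204, in WT, mgR and mgR-LOS. Since the libraries were joined with no correction for differences between them, cell states and library effects cannot be told apart in these clusters. Within the SMC cluster led by Tnnt2 and Corin (204, 295 and 1692 barcodes) Osmr was 23.9 (18.6–30.3), 51 (44.2–58.6) and 31.7 (29–34.6) CPM, with mgR highest. In that led by Gm26802 and Fam71a (112, 102 and 1556 barcodes) it was 19.9 (13.6–28.1), 22.9 (15.5–32.5) and 17.55 (15.6–19.7). In that led by hemoglobin genes (100, 88 and 2115 barcodes) it was 11.5 (5.24–21.8), 23.9 (13.7–38.9) and 17.5 (15.4–19.9), and in both clusters all 3 intervals overlapped. The mgR and mgR-LOS intervals also overlapped in the cluster led by Vcam1 and Spp1, at 38.3 (34.3–42.6) and 34.45 (29.7–39.7) CPM. In that led by Igfbp2 and Fn1 they did too, at 27.5 (25.3–29.8) and 25.2 (19.5–31.95), as in those led by Fst and Cxcl1 and by Acan and P2rx1. In each of these clusters Osmr was higher in mgR than in mgR-LOS. Its ligand gene Osm was at 149.7, 188 and 107 CPM in macrophages and 0.0582, 0.4655 and 0.256 in SMCs.

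Il6ra, the IL-6 receptor chain, had 30.7%, 48.4% and 35.8% of its UMIs in macrophages and 49.8%, 26.5% and 34.4% in fibroblasts. In macrophages it stood at 110.5 (89.2–135) CPM in WT, 114 (107–122) in mgR and 154.5 (142–168) in mgR-LOS, where WT and mgR overlapped and the ratio of mgR-LOS over mgR was 1.36 (1.22–1.51). In fibroblasts it stood at 10.25 (8.68–12) CPM in WT, 16.6 (15.15–18.1) in mgR and 22 (20.2–23.9) in mgR-LOS, with no overlap. Il6st was in every main class, at 371, 427 and 513 CPM in ECs, 186, 238 and 214 in fibroblasts, 80.1, 78.2 and 82.8 in SMCs and 34.5, 29.9 and 38.9 in macrophages. Of the mgR fibroblasts with Il6ra, 95.2% also had Il6st, against 85.4% of all mgR fibroblasts, both unthinned, and the part of barcode depth was not tested.

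Members were counted as higher or lower where the ratio was at least 2-fold and a gene had at least 20 UMIs over both libraries of a class. The members and the lists below were chosen with earlier results of these data known, so the shares of all genes are no test of them. For mgR over WT in SMCs 7 of 10 members were higher, where 6.52% of all genes counted this way were, and 0 were lower, where 4.70% were. In fibroblasts 4 of 9 were higher (5.74% of all genes) and 0 lower (4.76%). In macrophages 1 of 7 was higher (10.2%) and 0 lower (2.84%), and in ECs 1 of 5 was higher (5.13%) and 0 lower (2.44%). The 7 in SMCs were Lif, Il1b, Il6, Tnf, Il6ra, Osmr and Il1a, of which all but Osmr stood under 10 CPM in mgR. Among the SMC clusters of mgR, Il6 was highest in those led by Fst (196 CPM) and Mcpt4 (173 CPM), and Lif in that led by Fst (14.8 CPM). Dpt, a fibroblast gate marker, was among the leading genes of the Fst cluster, at 446 CPM against 15.2 in the other SMC clusters. Clusters also took in mixed barcodes, and the cell types behind these values were not tested. The members higher in fibroblasts were Il1b, Tnf, Lif and Il6, that in macrophages was Lif and that in ECs was Il1r1. Il1b, Tnf and Il1a in SMCs and Il1b and Tnf in fibroblasts are among the low values beside which macrophage markers moved. Il6ra, at 0.543, 2.37 and 2.13 CPM in SMCs, had most mgR UMIs in macrophages of any class. Il6 and Lif lay mostly in fibroblasts. Summed fibroblast markers were 1307, 1823 and 1272 CPM in SMCs of WT, mgR and mgR-LOS, against 22197 CPM in mgR fibroblasts. The part of macrophage and fibroblast markers was not tested, so the members behind the counts and medians of both classes cannot be taken as independent. Median ratios of the members were 3.74 in SMCs, 1.66 in fibroblasts and 0.870 in macrophages, against 0.985, 0.990 and 1.08 over all genes. With barcodes named by clusters 5 members passed 2-fold in either direction in macrophages, and the share of all genes was not computed under that naming.

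For mgR-LOS over mgR 0 of 10 members were higher in SMCs (5.09% of all genes) and 0 lower (2.45%). In fibroblasts 0 of 10 were higher (3.11%) and 0 lower (2.69%), and in macrophages 0 of 8 were higher (2.32%) and 0 lower (2.62%). In ECs 1 of 6 was higher (3.24%), Il6ra on 17 and 9 UMIs, and 0 lower (3.34%). Median ratios of the members were 0.979, 0.8385 and 0.9435 in SMCs, fibroblasts and macrophages, against 1.055, 1.015 and 1.013 over all genes. At a mitochondrial limit of 5% the count past 2-fold in either direction in SMCs was 5. By clusters it was 3, with the Mcpt4 cluster counted as SMC. The share of all genes past 2-fold was not computed under either setting.

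Over all genes, 6.52% in SMCs and 5.74% in fibroblasts were at least 2-fold higher in mgR over WT, and 4.70% and 4.76% lower. Other genes of the IL-1 family past 2-fold in mgR over WT were 3 of 12 in SMCs and 4 of 15 in fibroblasts, all higher. Of those in SMCs, Il1rn and Nlrp3 had 6 WT UMIs each. They stood at 1.08 and 1.10 CPM in mgR SMCs, against 122.5 and 361.5 in mgR macrophages. Of those in fibroblasts, Il1rn and Il1rl1 had 1 and 0 WT UMIs. Irak3, a brake on IL-1 receptor signaling, was 15.75, 31.55 and 31.3 CPM in WT, mgR and mgR-LOS fibroblasts, and Il1r2, the decoy receptor, 0.747, 3.57 and 2.47. In the IL-6 family 3 were higher and 2 lower of 16 in SMCs, and 3 and 2 of 15 in fibroblasts. Socs1, a feedback inhibitor, was 34, 16.4 and 27.5 CPM in fibroblasts, and the receptor gene Cntfr 21.4, 6.81 and 14.3, both lowest in mgR. In the TNF list 1 of 11 and 2 of 12 were higher in SMCs and fibroblasts and 0 lower, among them the receptor gene Tnfrsf1b at 10.5, 21.8 and 11.9 CPM in fibroblasts.

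In the NF-kB list 2 of 12 were higher in mgR over WT in SMCs (6.52% of all genes), 1 of 12 in fibroblasts (5.74%), 0 of 12 in macrophages (10.2%) and 5 of 12 in ECs (5.13%), and 0 were lower. Of the 5 in ECs, Nfkb2, Relb, Nfkbib and Tnip1 had 10, 12, 9 and 13 WT UMIs, and Nfkbiz 37. The ratio intervals of Nfkb2 (0.997–4.51) and Nfkbib (0.992–4.89) included a ratio of 1. In macrophages 1 of 16 IL-1 family genes were higher and 0 lower (2.84% of all genes), 0 of 12 IL-6 family genes higher and 1 lower, and 0 of 11 TNF genes either. In fibroblasts of mgR-LOS over mgR, 1 of 16 IL-1 family, 2 of 16 IL-6 family, 1 of 12 TNF and 0 of 12 NF-kB genes were lower (2.69% of all genes). Nfkbia, an inhibitor that NF-kB induces, was 58.7, 226 and 170.1 CPM in SMCs. Tnfaip3, another feedback inhibitor, was 3.05, 14.7 and 7.10 in SMCs and 34.15, 95.4 and 73.3 in fibroblasts. Nfkbiz was 47.8, 125 and 66.7 in ECs.

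Of 10 genes known to respond to these cytokines, 6 of 9 counted in SMCs and 7 of 10 in fibroblasts were higher in mgR over WT (6.52% and 5.74% of all genes). In mgR-LOS over mgR 6 of 9 and 5 of 10 were lower (2.45% and 2.69%). In macrophages 3 of 8 and in ECs 3 of 7 were higher in mgR over WT (10.2% and 5.13%). In mgR-LOS over mgR 2 of 8 were lower in each (2.62% and 3.34%), and 1 of 8 was higher in ECs (3.24%). The median ratios of the list for mgR over WT were 8.92 in SMCs and 4.14 in fibroblasts. Of the 6 higher in SMCs, Saa3, Lcn2 and Icam1 had 7, 8 and 33 WT UMIs, and 6.33, 1.67 and 5.71 CPM in mgR. Cxcl1, Ccl2 and Timp1 had 59.7, 25.1 and 77.9 CPM in mgR SMCs. The part of other cell types in these SMC values was not tested. The list was chosen with earlier results of these data known, so its counts and medians describe these genes and are no test of cytokine signaling. The acute-phase gene Saa3 was 0.136, 40.0 and 2.47 CPM in fibroblasts and 7.13, 605 and 17.2 in macrophages, and Lcn2, which binds iron carriers of bacteria, 2.58, 114 and 2.67 in fibroblasts. The chemokine genes Cxcl1 and Ccl2 were 278.5, 1166 and 702.5 and 57.1, 418.5 and 175.5 CPM in fibroblasts. Ptgs2, a prostaglandin synthase, was 172, 704 and 484, and Timp1, an inhibitor of matrix proteases, 228, 690.5 and 226. In SMCs Cxcl1 was 4.33, 59.7 and 26.9 and Timp1 16.1, 77.9 and 15.8 CPM. Ccl2 in macrophages was 2701, 1955 and 1806 CPM, highest in WT.

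**Figure D5:**
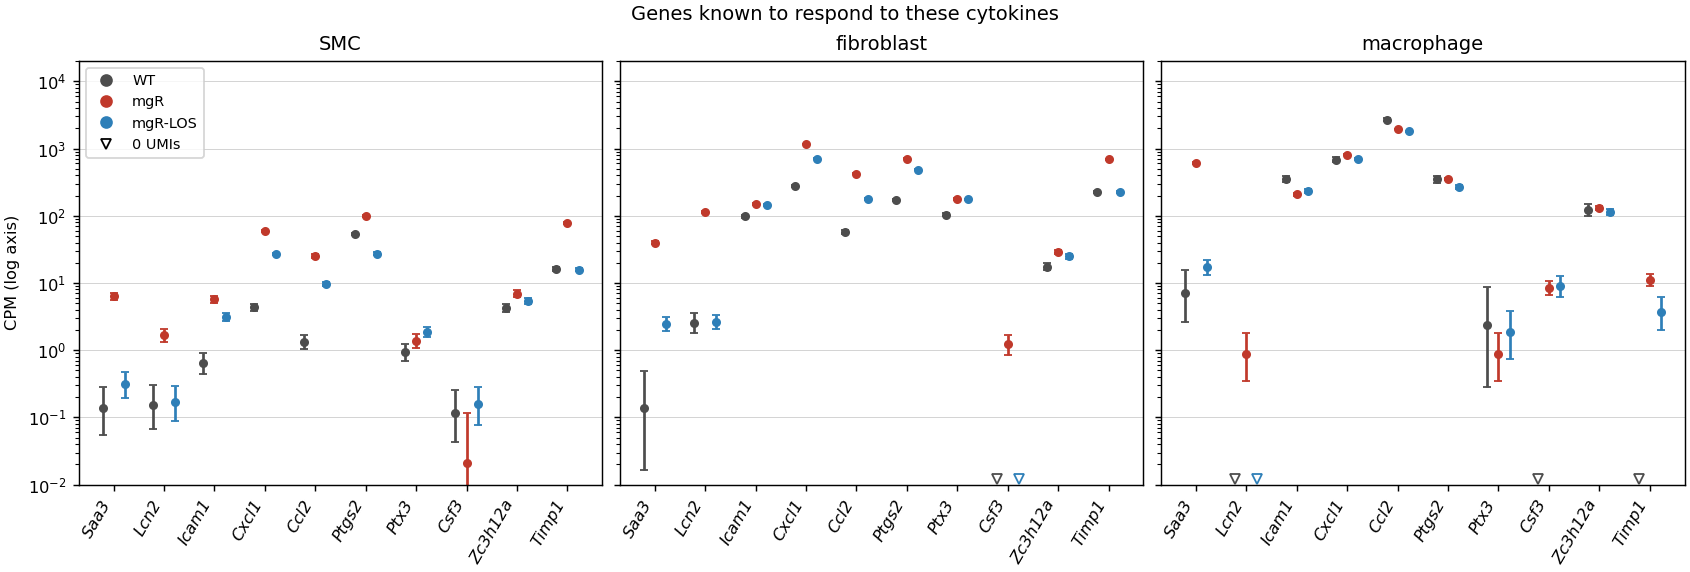
CPM (log axis) of 10 genes known to respond to these cytokines in SMCs, fibroblasts and macrophages of WT, mgR and mgR-LOS, with 95% counting intervals. In fibroblasts Saa3 is 0.136, 40.0 and 2.47 and Lcn2 2.58, 114 and 2.67 CPM, highest in mgR.

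Genes known to be induced when tissue is dissociated were counted beside the members. Of 12, 0 were higher in mgR over WT in SMCs and fibroblasts, and 2 and 1 were lower, where 4.70% and 4.76% of all genes were. The lower ones were the heat shock genes Hspa1a (462, 187 and 458 CPM in SMCs and 629.7, 282 and 552 in fibroblasts) and Hspa1b (297, 120.1 and 236 in SMCs). Their summed level was 12758, 11043 and 11887 CPM in SMCs, 12387, 12907 and 14165 CPM in fibroblasts and 12230, 14197 and 12871 CPM in macrophages. In ECs Fos (684.5, 1373 and 873 CPM) and Fosb (90.4, 195.5 and 93.4) were higher in mgR. The part of these genes in the cytokine levels was not tested.

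The genes with the profile most like each member were named over 17 sums, one for each class and library of at least 50 barcodes, among 14683 genes, by Pearson r of log2(CPM + 1). Il1a was closest to Cd300ld (0.990), Il1b to Wfdc17 (0.978) and Tnf to Nlrp3 (0.987). Il33 was closest to Pi16 (0.967) and Dcn (0.959), which are also markers of the fibroblast gate. Il6 had no gene above 0.876 (Itpkc) and Lif none above 0.859 (Cdk11b). Among the receptor genes Osmr was closest to Nr2f2 (0.986), Il1r1 to Dipk1b (0.926), Il6ra to Ftl1 (0.974) and Il6st to Efnb1 (0.967). The sums share libraries and depth, so these values describe likeness only.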

How the data were processed

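Cells of the ascending aorta were profiled by droplet single-cell RNA sequencing with 3′ counting, 1 library per group. The authors deposited raw UMI counts per gene and barcode made with CellRanger, version 5.0.1 for WT and mgR and 6.0.1 for mgR-LOS per the file headers, whereas the submitters' processing notes list 6.0.1 for all. Reads were aligned to GRCm38 (mm10). Whether a version difference between libraries affects the levels was not tested.

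Barcodes with fewer than 600 or more than 5000 genes or over 10% mitochondrial UMIs were left out. Classes were gated on summed marker UMIs per 10000, with at least 3 markers detected. The cuts and the scoring rule were set after the marker distributions were seen. Counts were summed per class and library and scaled to CPM, and intervals were exact: Poisson for levels, Clopper-Pearson for a share, and binomial given the sum of both counts for a ratio. With 1 library per group no p-value was computed. Python 3.11.15, numpy 2.4.6, scipy 1.17.1 and igraph 0.11.9 were used, and the counting of genes past 2-fold was tested on simulated data. All 10 members are named, and of the pathway lists those genes past 2-fold in a class with at least 20 UMIs, the 5 with the most UMIs first, of which 1 gene is not reported here. The members and lists were chosen with earlier results of these data known. Alternatives changed the gene minimum, mitochondrial limit, denominator, gate cuts, naming of barcodes, weighting and thinning.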

Additional observations from a re-analysis of the deposited data

Results flagged for a closer look

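Some members had ratios in opposite directions in different cell types, and none of these differences was tested, since each group is 1 library. For mgR over WT, Il1a was 3.12 in SMCs and 0.541 in macrophages. Il1b was 25.4 in SMCs and 26.0 in fibroblasts but 0.888 in macrophages, and Tnf was 4.36, 6.58 and 0.788. The SMC and fibroblast values of these 3 genes moved beside summed macrophage markers, whose part was not tested, and the SMC ratio of Il1b ranged from 15.25 at a mitochondrial limit of 5% to 45.9 with mixed barcodes given to the highest class, and that of Tnf from 1.48 with barcodes weighted equally to 17.0 by clusters. For mgR-LOS over mgR, Il1b was 1.33 in SMCs, 1.49 in fibroblasts and 0.964 in macrophages, and Tnf was 1.51 in SMCs and 0.923 in macrophages. Il6st was 1.06 in SMCs, 1.3 in macrophages and 1.2 in ECs but 0.900 in fibroblasts. Lif was 1.61 in macrophages and 0.553 in fibroblasts.

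Barcodes left out for having fewer than 600 genes also carried members. In mgR they held Il1b at 222 CPM (190–258), Il6 at 56.4 (40.8–76.0) and Osmr at 39.4 (26.6–56.2). The WT values in such barcodes were 12.7 (7.40–20.3), 13.4 (7.97–21.3) and 14.9 (9.13–23.1).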

How the results depend on the processing

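No paired analysis was possible because each group is 1 library, and for the same reason no replicate could be left out. A minimum of 200 genes and a denominator without mitochondrial, ribosomal protein and globin genes moved none of 106 values each. Weighting each barcode equally was added after seeing the data. The cause of the changes given here was not tested.

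With a mitochondrial limit of 5%, the library ratio of mgR over WT was 5.34 for Il1b, 6.81 for Lif, 3.42 for Tnf and 2.59 for Il6, the Il33 library ratio of mgR over WT was 0.956, Osmr in SMCs 2.63, Il6 in fibroblasts 2.94 and Il1b in macrophages 0.848, and Il1b in macrophages was 0.940 for mgR-LOS over mgR. Il6 in fibroblasts (mgR over WT) was 2.73 with gate cuts doubled, 2.94 with cuts halved, 2.97 with mixed barcodes given to the highest class and 2.84 with barcodes weighted equally. For mgR-LOS over mgR it was 0.720 with cuts doubled and 0.591 by clusters. Weighted equally, the library ratio of Il1b was 14.1 for mgR over WT and 0.227 for mgR-LOS over mgR. Il1b in macrophages (mgR over WT) was 0.838 with cuts doubled, 1.08 by clusters and 0.954 weighted equally, and for mgR-LOS over mgR 0.921 with mixed barcodes given out and 0.724 by clusters. Il1b in fibroblasts (mgR-LOS over mgR) was 0.585 with cuts doubled, 0.635 with mixed barcodes given out, 0.704 by clusters and 0.878 weighted equally. For the same comparison Il1b was 0.319 and Tnf 0.244 in SMCs by clusters, where the cluster led by Mcpt4, Cma1, Cxcl2 and Lyz2 is counted as SMC. In macrophages of that comparison Il1a was 1.02 with cuts doubled and Il6 1.07 weighted equally, and Il33 in fibroblasts was 0.811 by clusters and 0.813 weighted equally.

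Members past 2-fold were also counted under the alternatives, higher and lower together. The share of all genes past 2-fold was not computed there, so these counts cannot be set against it. Members past 2-fold for mgR over WT were 3 in macrophages with cuts doubled, 4 with mixed barcodes given out and 5 by clusters, and in ECs 3 at the 5% limit, 2 with cuts halved, 2 with mixed barcodes given out and 3 by clusters. For mgR-LOS over mgR they were 5 in SMCs at the 5% limit and 3 by clusters, in fibroblasts 1 with cuts doubled, 1 halved, 1 with mixed barcodes given out and 2 by clusters, and in ECs 0 at the 5% limit and 2 with mixed barcodes given out. In the order 5% limit, cuts doubled, cuts halved, mixed given out and clusters, the mgR share of Il1b UMIs in macrophages was 50.9%, 46.9%, 52.0%, 51.5% and 68.4%, and that of Il6 in fibroblasts 83.3%, 71.4%, 72.8%, 85.7% and 86.6%.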
